A study of Homo sapiens with 6 samples.

Results

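Genes of the unfolded protein response (UPR) of the endoplasmic reticulum (ER) were followed in CAL-27 cells with and without an shRNA against XBP-1s. They encode the UPR sensors, a protease that cuts ATF6 and related membrane-bound factors, and transcription factors downstream of the sensors or membrane-bound themselves. The set was fixed by gene symbol and holds 10 genes (ERN1, ATF6, ATF6B, EIF2AK3, MBTPS1, XBP1, ATF4, DDIT3, CREB3 and CREB3L2) of the 19740 genes named on the array. They were read by every non-control probe whose RefSeq accession belongs to one of these symbols, which gave 12 of the 34127 probes. CAL-27 is an established human line of tongue squamous cell carcinoma. Total RNA came from cells carrying the shRNA against XBP-1s (shXBP-1s, n = 3) or the negative control shRNA (shCtrl, n = 3) and was hybridised with Cy3 to 1-colour Agilent arrays, 1 array per sample. The labels give no stress treatment for either group, and the study's methods describe the cells as stably transduced. The study states in general that experiments were repeated independently, but the labels do not say whether the samples of a group came from separate cultures, so every p-value measures the spread between these samples, which may be technical. A single hairpin name and a single cell line stand behind the comparison.

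As background, 3 sensors sit in the ER membrane and are held inactive by the chaperone HSPA5 (BiP) until unfolded proteins accumulate. IRE1α, encoded by ERN1, is a kinase and nuclease that excises a short intron from XBP1 mRNA, so that the spliced transcript encodes the active factor XBP-1s. PERK, encoded by EIF2AK3, phosphorylates the translation factor eIF2α, which favours translation of ATF4 and, through it, expression of DDIT3 (CHOP). ATF6, its relative ATF6B and the factors CREB3 and CREB3L2 are made as membrane proteins and are cut in the Golgi by proteases that include MBTPS1, which frees their DNA-binding part. Splicing, phosphorylation, cutting and translation are steps that an mRNA array does not read, so all values below are transcript levels.

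The promoter letters of a few of these genes are shown first, chosen for their motif matches before the start site. The ER stress response element (ERSE), which reads CCAAT, 9 bases of any kind and CCACG, is the site described for ATF6 with the CCAAT-binding factor NF-Y, and XBP-1s can also bind it. Promoter windows of 300 bases, 250 before and 50 after each start site, were taken from RefSeq (GRCh38.p14), and motifs were searched on both strands. All 10 genes had a window, 14 windows in all. An exact ERSE stood in 1 of the 10 genes, XBP1, from 52 to 34 bases before the start, against 25 of 27305 genes over the whole table (0.0916%). The HSPA5 window also held an exact ERSE, from 66 to 48 bases before the start. The stretches below end at the base before the start site and run 5' to 3' along the gene. Capitals mark the ERSE with its spacer in XBP1 and HSPA5, the letters TGACGT (the core of a cyclic AMP response element, CRE) on either strand in HSPA5, ATF6 and CREB3L2, and ACGTG on either strand in DNAJB9, a target named below.
XBP1, chr22:28800570-28800669, minus strand: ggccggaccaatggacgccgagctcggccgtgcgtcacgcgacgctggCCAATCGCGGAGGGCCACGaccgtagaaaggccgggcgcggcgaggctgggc
HSPA5, chr9:125241344-125241513, minus strand: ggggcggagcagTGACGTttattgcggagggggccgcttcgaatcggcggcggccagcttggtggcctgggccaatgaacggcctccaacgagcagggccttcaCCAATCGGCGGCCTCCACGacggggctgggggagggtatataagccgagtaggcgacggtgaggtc
ATF6, chr1:161766190-161766319, plus strand: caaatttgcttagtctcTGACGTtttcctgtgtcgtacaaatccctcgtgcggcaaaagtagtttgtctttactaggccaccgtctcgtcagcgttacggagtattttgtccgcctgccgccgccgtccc
CREB3L2, chr7:138002087-138002286, minus strand: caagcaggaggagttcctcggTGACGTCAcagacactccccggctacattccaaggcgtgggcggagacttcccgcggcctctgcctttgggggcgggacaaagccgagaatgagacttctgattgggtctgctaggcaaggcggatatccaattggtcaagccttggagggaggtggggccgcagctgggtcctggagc
DNAJB9, chr7:108569774-108569873, plus strand: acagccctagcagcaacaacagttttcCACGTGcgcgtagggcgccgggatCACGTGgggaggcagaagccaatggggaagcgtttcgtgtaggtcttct
The core TGACGT was matched in 2 of the 10 genes, ATF6 and CREB3L2, against 9.64% of all genes, and in CREB3L2 it was matched on both strands at overlapping positions, which together read TGACGTCA. ACGTG, the core shared by several UPR elements, was matched in 5 of the 10 (XBP1, ATF6B, EIF2AK3, ATF4 and CREB3), against 24.9% of all genes, and in EIF2AK3 the match lay 41 to 45 bases after the start. ACGTG and TGACGT can overlap, as can ACGTG with the longer UPR element (UPRE), TGACGT followed by GG. That longer element was matched in 0 of the 10 genes (0.927% of all genes), and ERSE-II (ATTGG, 1 base of any kind and CCACG) in 0 of the 10 (0.0696%). The C/EBP-ATF site (TGATG, 1 base, AA, 1 base) was matched in 1, CREB3L2, 17 to 25 bases after its second start site (4.45% of all genes). These matches describe letters in these windows and no binding.

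The signal of a spot is its brightness after background subtraction by the scanner software. It was divided by the array's 75th percentile and taken as a log2 value. For display, scaled signals are those values multiplied back to the geometric mean of the 6 percentiles, so that arrays can be read against each other. Signals of different probes are not comparable, so each probe is compared only with itself between arrays. All 12 probes were well above background on all 6 arrays and none was saturated. Between 82.1% and 84.8% of all spots were well above background, and the 75th percentile lay between 687.4 and 761.3 on shCtrl arrays and between 792 and 983.4 on shXBP-1s arrays. By shared scan, shCtrl replicates 2 and 3 lay on slide 1, and shCtrl replicate 1 with all 3 shXBP-1s samples on slide 2, so slide and group overlap in part and values within slide 2 are given beside the results. Squamous epithelial markers were detected as the label implies, 12 of 12 on all arrays, but their summed signal was 99330 to 104900 on shCtrl and 203300 to 209000 on shXBP-1s arrays. Of markers of other cell types, 6 of 8 fibroblast markers (COL3A1 and THY1 on no array), 6 of 6 immune markers on the array and 5 of 5 endothelial markers were above background on all arrays. Their summed signals ran from 678 to 819.6 on shCtrl and from 567.9 to 717.6 on shXBP-1s arrays for fibroblast markers, from 3559 to 5353 and from 3689 to 4563 for immune markers, and from 173.4 to 202.4 and from 213.7 to 284.6 for endothelial markers. These sums of unscaled signals follow their brightest probes, and single markers differed both ways on the log2 scale after scaling, with DCN at 1.43, LUM at 1.94, FAP at 1.76, CSF1R at 1.04, PDGFRB at -1.28 and CD14 at -0.84. The part of this shift between groups in the results below was not tested.

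XBP1, the target of the shRNA, was the 1 gene of the 10 that changed by at least 2-fold, and CREB3L2 and ATF6 followed with smaller differences in opposite directions. XBP1 was 5.23-fold lower in shXBP-1s. CREB3L2 was 1.46-fold lower by its brighter probe, and ATF6 was 1.25-fold higher. The transcripts of the other UPR sensors and of ATF4 and DDIT3 differed by less than their spread allowed to be called. A call needed a change of at least 2-fold and a limma p below 0.05 after Benjamini-Hochberg adjustment over all 27624 tested probes. By this rule 1 of the 12 probes was called (8.33%), beside 4.9% of all tested probes, 2.61% lower and 2.29% higher in shXBP-1s. Without a minimum fold, 5 of the 12 had an adjusted p below 0.05, 3 lower and 2 higher. That share, 41.7%, was the same as the 41.7% of all tested probes. The 2 groups of arrays did not overlap for 8 of the 12 probes, beside 52.4% of all tested probes. The median difference of the 12 probes was 0.029 on the log2 scale, beside -0.022 over all tested probes. Of the 11 probes other than that of XBP1, 4 had an adjusted p below 0.05. With 3 arrays a group, an exact permutation test of a single probe cannot give a p below 0.1.

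**Figure D1:**
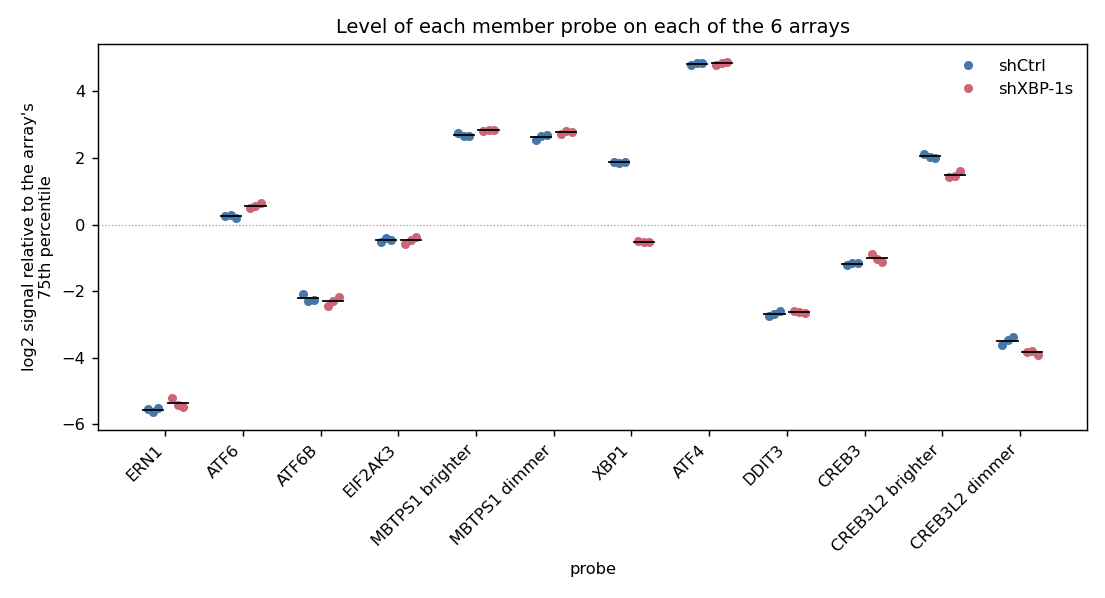
Level of each of the 12 probes on each array, as the log2 signal relative to the 75th percentile of the array (y axis), with 3 shCtrl arrays in blue, 3 shXBP-1s arrays in red and a black line at each group mean (n = 3). XBP1 drops from a mean of 1.87 to -0.52, CREB3L2 is lower at both probes, and heights of different probes cannot be compared with each other.

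Among the sensors, ATF6 was the one whose transcript differed past the adjusted p. Of all tested probes, 41.7% had an adjusted p below 0.05, and by size of the difference ATF6 ranked 10273 among the 27624. Its scaled signal was 964.3, 977.3 and 926.9 on the shCtrl arrays and 1139, 1185 and 1258 on the shXBP-1s arrays. Every shXBP-1s array lay above every shCtrl array. The log2 difference was 0.32 (SE 0.052, 95% interval 0.20 to 0.44, limma adjusted p = 0.00174). Within slide 2 it was 0.307. The probe carries the accession NM_007348. ATF6 is the sensor that is itself a transcription factor, and its cut form drives chaperone genes such as HSPA5.

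ATF6B, the relative of ATF6 that is cut in the same way, was not called. Its scaled signal was 191.6, 163.2 and 168.8 in shCtrl and 148, 163.4 and 178.2 in shXBP-1s. The groups overlapped, and the highest array of all was shCtrl replicate 1. The difference was -0.098 on the log2 scale (SE 0.091, 95% interval -0.31 to 0.11, adjusted p = 0.433), an interval that holds changes of either sign. Within slide 2, where shCtrl replicate 1 is the only control, it was -0.24. Leaving out 1 array moved it to -0.029 where replicate 1 of either group was dropped, and to -0.16 without shXBP-1s replicate 3.

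ERN1, the sensor directly upstream of XBP1 splicing, was read by a dim probe. Scaled signals were 17.28, 16.27 and 17.6 in shCtrl and 21.84, 18.86 and 18.18 in shXBP-1s. The shXBP-1s arrays were all above the shCtrl arrays, but replicate 1 stood well above the other two. The log2 difference was 0.20 (SE 0.131, 95% interval -0.10 to 0.50) and did not pass the test (adjusted p = 0.264). Its sign turned under another background correction, normexp, where it was -0.81, and that correction moved the median of all tested probes to -0.41. With normexp followed by quantile normalization, where that median was -0.001, ERN1 was 0.030. Without shXBP-1s replicate 1 it was 0.12.

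EIF2AK3, encoding PERK, showed the smallest difference of the sensors. Scaled signals were 556.9, 608.8 and 584.2 in shCtrl and 538.5, 589.2 and 627 in shXBP-1s. The groups interleaved, with both the lowest and the highest array in shXBP-1s. The difference was 0.002 on the log2 scale (SE 0.068, adjusted p = 0.984), with a 95% interval from -0.15 to 0.16. A change of 2-fold in either direction lies outside that interval.

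MBTPS1, the Golgi protease also called site-1 protease, was measured by 2 probes that carry the same accession, NM_003791. The brighter probe gave scaled signals of 5452, 5074 and 5051 in shCtrl and 5614, 5840 and 5805 in shXBP-1s. The dimmer gave 4716, 5090 and 5174 in shCtrl and 5278, 5680 and 5567 in shXBP-1s. At both probes each shXBP-1s array was above each shCtrl array, although by little. The log2 differences were 0.15 (SE 0.049, 95% interval 0.04 to 0.26, adjusted p = 0.0404) and 0.14 (SE 0.054, 95% interval 0.02 to 0.27, adjusted p = 0.0685), so the same small size fell on either side of the threshold. The difference between the 2 probes' differences was 0.007 on the log2 scale (exact permutation p = 1, 2-sided). With slide as a block, which compares arrays of slide 2, the brighter probe gave 0.077 (adjusted p = 0.392) and the dimmer 0.22 (adjusted p = 0.0396), the reverse of the order over all arrays.

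**Figure D2:**
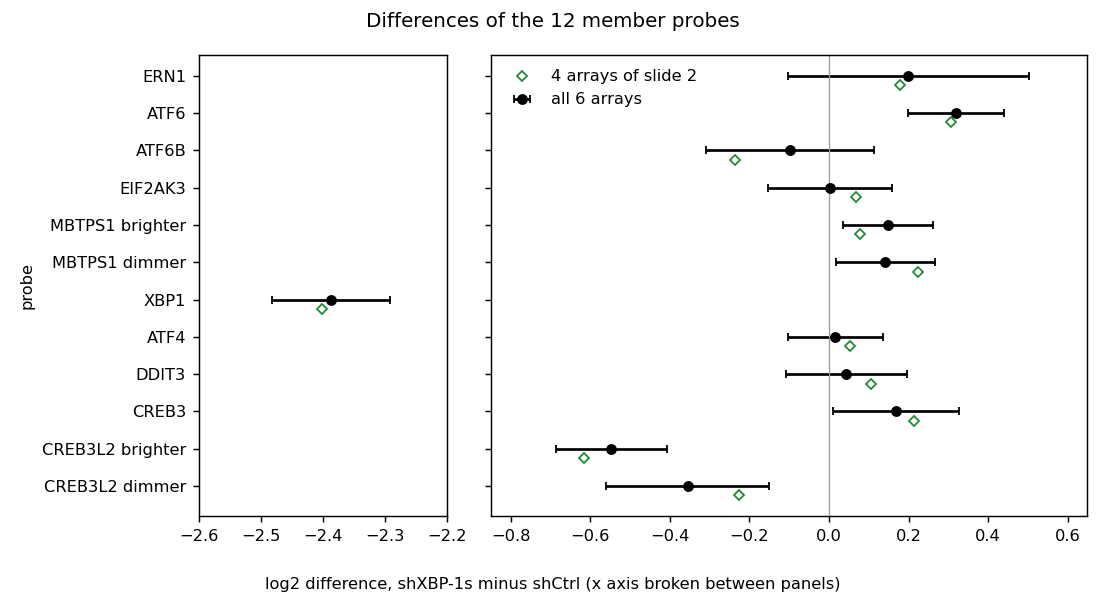
Log2 difference (shXBP-1s minus shCtrl, x axis) of each probe with its 95% interval from limma over all 6 arrays (black), and the difference of the 3 shXBP-1s arrays from shCtrl replicate 1 within slide 2 (green diamonds). The x axis is broken, with XBP1 at -2.39 in the left panel. The intervals of ATF6, MBTPS1, CREB3 and CREB3L2 lie to 1 side of 0, and those of ERN1, ATF6B, EIF2AK3, ATF4 and DDIT3 span it.

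XBP1 itself was printed in 10 spots of 1 probe on each array, which gives the targeted transcript the most repeated reading of the set. The probe carries the accession NM_005080, and whether it tells spliced from unspliced XBP1 apart is not given in the sources used here. Scaled signals were 2974, 2906 and 2948 in shCtrl and 570.3, 556.4 and 560.9 in shXBP-1s. The groups were far apart and each was narrow, with an SD of 0.017 and 0.018 on the log2 scale (n = 3). Spots on the same array varied by 1.45% to 6.72% (CV), and 2 of the 10 spots of shXBP-1s replicate 3 carried an outlier flag and were left out. The log2 difference was -2.39 (SE 0.041, 95% interval -2.48 to -2.29, adjusted p = 2.81e-07), so that 19.1% of the shCtrl level remained. Within slide 2 the difference was -2.40. It ranked 68 among the tested probes by the size of the difference, so larger differences occurred at other probes. In bulk RNA, a lower level in all cells cannot be told apart from cells without the shRNA mixed with cells of stronger knockdown.

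ATF4 and DDIT3, the factors of the PERK arm, were near the shCtrl level. The scaled signal of ATF4, which drives amino acid and redox genes, was 22280, 23160 and 23120 in shCtrl and 22190, 23110 and 24060 in shXBP-1s. The groups interleaved and the difference was 0.016 on the log2 scale (SE 0.051, 95% interval -0.10 to 0.14, adjusted p = 0.829). DDIT3, which encodes the pro-apoptotic factor CHOP, gave 121.2, 124.7 and 133.7 in shCtrl and 134.3, 129.4 and 127.4 in shXBP-1s. These groups overlapped as well, and the difference was 0.043 (SE 0.066, 95% interval -0.11 to 0.20, adjusted p = 0.633). For both genes the interval leaves out a 2-fold change. ATF4 is regulated largely at translation, which was not measured. DDIT3 was -0.32 under normexp, beside a median of -0.41 over all tested probes, and 0.076 with normexp and quantile normalization. Without shCtrl replicate 1 it was 0.013.

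The 2 members of the CREB3 family had differences of opposite sign, of which that of CREB3L2 passed the adjusted p. CREB3 (Luman), a membrane-bound factor of the secretory pathway, had scaled signals of 345.4, 365.6 and 358.9 in shCtrl and 436.6, 397.8 and 370.5 in shXBP-1s. The groups did not overlap, but shXBP-1s replicate 3 lay close to the highest shCtrl array. The log2 difference of 0.17 (SE 0.069, 95% interval 0.01 to 0.33) did not pass the adjustment (adjusted p = 0.0852). It was 0.11 without shXBP-1s replicate 1 and 0.23 without shXBP-1s replicate 3, where the adjusted p was 0.0315.

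CREB3L2 (BBF2H7), which in cartilage drives genes of ER-to-Golgi transport, was measured by 2 probes with the accession NM_194071. The brighter probe gave scaled signals of 3498, 3289 and 3222 in shCtrl and 2167, 2237 and 2451 in shXBP-1s. The dimmer gave 65.77, 72.99 and 77.59 in shCtrl and 56.54, 58.43 and 53.87 in shXBP-1s. Both probes placed every shXBP-1s array below every shCtrl array. The log2 differences were -0.55 (SE 0.060, 95% interval -0.69 to -0.41, adjusted p = 0.000200) and -0.35 (SE 0.089, 95% interval -0.56 to -0.15, adjusted p = 0.0135). The brighter probe's difference minus the dimmer's was -0.19, with an exact permutation p of 0.3 (2-sided). With slide as a block the brighter probe gave -0.62 (adjusted p = 0.00116) and the dimmer -0.23 (adjusted p = 0.154), so the adjusted p of the dimmer probe lay above 0.05 while that of the brighter stayed below it. Without shCtrl replicate 3 the dimmer probe had an adjusted p of 0.0567. The level was between 68.4% and 78.2% of shCtrl by the 2 probes, short of the 2-fold rule. By size the differences ranked 5147 (brighter) and 9192 (dimmer) among the 27624 tested probes.

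The partners and targets of these genes were read from 7 lists written from general knowledge, with 119 distinct genes, of which 117 were tested by their brightest probe. By the rule of adjusted p and 2-fold, 7 of the 117 were called, 5 lower and 2 higher in shXBP-1s. Over all 16821 tested genes, 5.18% were called, 2.88% lower and 2.3% higher, and the median difference was -0.041. List by list, between 1 and 3 genes were called, which is 4.35% to 12.5% of the tested genes of a list, beside the 5.18% of all. The medians ran from -0.090 for targets of ATF4 and CHOP to 0.093 for the luminal regulators of the sensors. Several genes stand in more than 1 list.

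HSPA5, the chaperone that binds all 3 sensors and whose promoter stretch is printed above, was lower. Its log2 level relative to the 75th percentile was 1.19, 1.22 and 1.25 in shCtrl and 0.21, 0.13 and 0.16 in shXBP-1s, with a difference of -1.05 (SE 0.044, adjusted p = 2.68e-06), which is 2.07-fold. The value lay close to the 2-fold line. Under normexp HSPA5 was at -0.94, while the median of all tested probes moved to -0.41, a shift that probes did not share evenly. With normexp and quantile normalization, where that median was -0.001, HSPA5 was at -0.95. DNAJB9 (ERdj4), a co-chaperone that brings HSPA5 to IRE1α and is a target of XBP-1s, was 2.2-fold lower. Its level was 1.121, 1.085 and 1.101 in shCtrl and -0.070, -0.062 and 0.017 in shXBP-1s, with a log2 difference of -1.14 (SE 0.045, adjusted p = 2.31e-06). The groups were wide apart at both genes. No other of the 16 luminal regulators was called. Of these 16, 6 were higher and 3 lower at an adjusted p below 0.05 with no minimum fold, beside 3184 higher and 4619 lower of the 16821 tested genes.

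Around IRE1α, DNAJB9 was the 1 called gene of 18 tested, and 1 of the 18 was higher and 5 lower at an adjusted p below 0.05 with no minimum fold. The list of XBP1s targets, 28 genes of ER import, folding and degradation, had 1 called lower (DNAJB9) and 1 called higher (DNAJC3). With no minimum fold, 7 of the 28 were higher and 12 lower. Over all 16821 tested genes, 3184 were higher and 4619 lower by that rule, which is the background for both lists. The median difference of the 28 was -0.038 beside -0.041 over all tested genes. DNAJC3, a co-chaperone of HSPA5 that is also an inhibitor of PERK, had log2 levels of -2.54, -2.39 and -2.49 in shCtrl and -1.34, -1.33 and -1.22 in shXBP-1s. The difference was 1.18 (SE 0.065, adjusted p = 6.85e-06), a 2.26-fold increase. Under normexp it was 0.66, where the median of all tested probes was -0.41. With normexp and quantile normalization, where that median was -0.001, it was 0.89.

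Among the partners of ATF6 and the CREB3 family, 19 were tested and 1 was called, NFYB, a subunit of the factor NF-Y that binds the CCAAT of the ERSE. Its log2 levels were -0.70, -0.72 and -0.65 in shCtrl and -1.83, -1.84 and -1.71 in shXBP-1s, a difference of -1.10 (SE 0.057, adjusted p = 5.41e-06) or 2.15-fold. It was -0.82 with normexp and quantile normalization, short of 2-fold. The other NF-Y subunits and the rest of the CREB3 family and proteases were looked up after their values were seen. NFYA was higher by 0.75 at its brighter probe (adjusted p = 4.06e-05) and by 0.23 at the other (adjusted p = 0.0117). NFYC differed by -0.007 (95% interval -0.23 to 0.21) at the brightest of its 4 tested probes. By the 2-fold rule at the brightest probes, NFYB was the 1 called subunit of the 3. CREB3L1 was higher by 0.27 (adjusted p = 0.0272). CREB3L4 differed by -0.43 (adjusted p = 0.000184) at the brighter of its 2 tested probes. CREB3L3 differed by -0.057 (95% interval -0.51 to 0.39), and MBTPS2, the protease that acts after MBTPS1, by -0.23 (adjusted p = 0.0400). None of these reached 2-fold. Over the whole list, 5 of the 19 were higher and 7 lower with no minimum fold, beside 3184 higher and 4619 lower of the 16821 tested genes.

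In the PERK arm and the integrated stress response, 23 genes were tested and DNAJC3 was the 1 called. With no minimum fold, 3 of the 23 were higher and 7 lower, with a median difference of -0.003. The 26 targets of ATF4 and CHOP had 2 called lower and 1 called higher (11.5%), beside 5.18% called of all tested genes. GDF15, a secreted stress cytokine, was 2.44-fold lower, with log2 levels of 3.51, 3.69 and 3.62 in shCtrl and 2.297, 2.297 and 2.363 in shXBP-1s (difference -1.29, SE 0.057, adjusted p = 3.08e-06). SLC7A11, the cystine-glutamate exchanger, was 2.3-fold lower. Its levels were -0.44, -0.15 and -0.21 in shCtrl and -1.33, -1.40 and -1.68 in shXBP-1s (difference -1.20, SE 0.108, adjusted p = 7.20e-05), a wider spread than at the other called genes, and the difference was -0.88 with normexp and quantile normalization. ERO1A, the oxidase that recharges protein disulfide isomerase, was 2.3-fold higher. It stood at 2.95, 2.85 and 2.88 in shCtrl and 3.99, 4.07 and 4.22 in shXBP-1s (difference 1.20, SE 0.067, adjusted p = 7.22e-06). With no minimum fold, 7 of the 26 were higher and 9 lower, beside 3184 higher and 4619 lower of the 16821 tested genes. Among the 16 targets of ATF6, HSPA5 was called lower and DNAJC3 higher (12.5%), and with no minimum fold 3 were higher and 5 lower, with a median of 0.050. The shares of all tested genes given here are the background for each list of this paragraph.

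**Figure D3:**
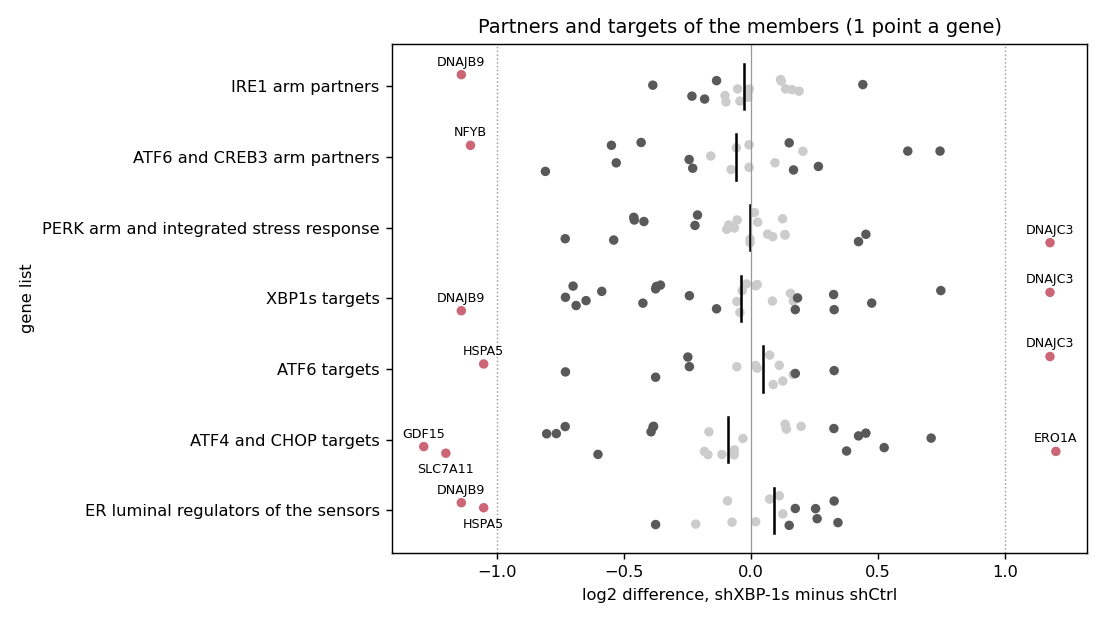
Log2 difference (shXBP-1s minus shCtrl, x axis) of each tested gene by its brightest probe, in 7 lists (y axis). Red points with names passed adjusted p below 0.05 and 2-fold (dotted lines at 2-fold), dark grey passed the adjusted p alone, light grey passed neither, and the black bar is the median of the list, which lies between -0.090 and 0.093 in every list; a gene in several lists appears in each.

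Over the 6 arrays, the genes whose profile was most like that of XBP1 were ranked by the root mean square distance between centred log2 levels, among the 16820 other tested genes. With 2 groups of arrays this measure depends mostly on the size of the group difference and on the spread within groups. AGR2, a protein disulfide isomerase relative of the ER in secretory epithelia, was nearest at a distance of 0.044 on the log2 scale, with levels from 0.84 to 0.95 in shCtrl and from -1.45 to -1.37 in shXBP-1s. TMT1A, a thiol methyltransferase, followed at 0.108. The noncoding transcript LY6E-DT was at 0.117, but it was well above background on 3 of 3 shCtrl and 1 of 3 shXBP-1s arrays, so its place rests in part on levels not above background. RIPOR3 was at 0.125. SUSD2, a membrane protein with a sushi domain, was at 0.127. The log2 differences of the 4 genes other than LY6E-DT ran from -2.41 to -2.15, beside -2.39 for XBP1. They were chosen for this likeness, so these values are a description.

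Across 17 processing alternatives that could move a single value or its p, the differences of XBP1, ATF6 and the brighter CREB3L2 probe each kept their sign and an adjusted p below 0.05 in all 17. XBP1 ran from -2.40 to -2.12, ATF6 from 0.28 to 0.37 and CREB3L2 from -0.62 to -0.42. The -0.42 of CREB3L2 came under normexp, where the median of all tested probes was -0.41. Probes did not share that shift evenly. ATF4 moved from 0.016 to 0.140 and the brighter MBTPS1 probe from 0.149 to 0.271, while ERN1 moved from 0.199 to -0.814 and DDIT3 from 0.043 to -0.319. The median is therefore no baseline for a single probe. With normexp and quantile normalization, where that median was -0.001, the brighter CREB3L2 probe was at -0.47. The dimmer CREB3L2 probe had an adjusted p below 0.05 in 14 of the 17, and the MBTPS1 probes in 8 and 5. CREB3 passed in 3 of the 17. Quantile normalization and the deposited values are counted separately in these tallies, although they gave near-equal results. CREB3 was at 0.199 and 0.200 under them, and it and both MBTPS1 probes passed under each. ERN1, ATF6B, EIF2AK3, ATF4 and DDIT3 passed in none.

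**Figure D4:**
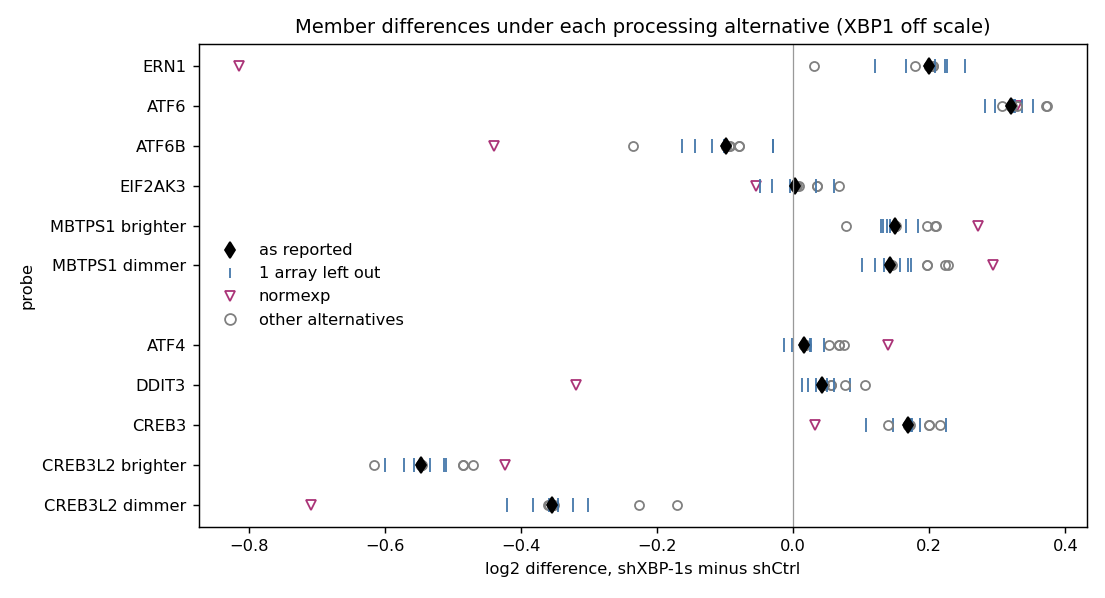
Log2 difference (shXBP-1s minus shCtrl, x axis) of each probe other than XBP1 as reported (black diamonds), with 1 array left out (blue bars), with normexp background correction (triangles) and under the other alternatives (circles). ATF6 stays between 0.28 and 0.37, while normexp takes ERN1 from 0.20 to -0.81 and DDIT3 from 0.043 to -0.32, with the median of all tested probes at -0.41.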

How the data were processed

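Total RNA of 6 CAL-27 samples (3 shXBP-1s, 3 shCtrl, grouped by the sample labels) was measured on 1-colour Agilent arrays. The files the authors deposited come from Agilent Feature Extraction 11.0.1.1, in which each spot's intensity is background-subtracted and detrended but not normalized between arrays. The authors also deposited a table of log2 values with equal quartiles on all arrays, used as an alternative, and the submitters' notes name RMA, with no version given. The labels describe a NimbleGen labelling procedure.

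Signals were divided by the array's 75th percentile over non-control spots and taken as log2, flagged spots were left out, and spots of a probe were averaged. Probes well above background (over 50% of spots) on all 3 arrays of a group were tested with limma 3.58.1 (lmFit, eBayes with trend) in R 4.3.3, 2-sided, and checked on simulated data. The number of arrays limits the precision. RefSeq accessions (GRCh38.p14) named 25771 probes, and the array annotation uses hg19, so probes have no coordinates here. Lists used the brightest probe of a gene. Genes named are the 10 members, called list genes (up to 6 a list), HSPA5 and the 5 nearest to XBP1, and, after their values were seen, the other NF-Y, CREB3 family and protease genes and single cell type markers. Members and lists were chosen with earlier results of these data known. Alternatives were normexp (offset 50, on median spot signals), quantile and median scaling, the deposited values, filters, thresholds, limma without trend, the methods' t-test, blocks and leaving out each array. Protein sequences were not analysed here.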

Additional observations from a re-analysis of the deposited data

How the results depend on the processing

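The 10-gene count kept XBP1 as its 1 called gene under every alternative with the 2-fold rule, and became 4 with no minimum fold. Probes called over the array were 1354 as reported (632 higher, 722 lower), 473 with normexp (159 higher, 314 lower), 357 with normexp and quantile normalization (chosen after seeing the data), 11516 with no minimum fold and 4129 at 1.5-fold. List genes called were 7 as reported, 62 with no minimum fold, 21 at 1.5-fold, 5 with normexp and 3 with normexp and quantile normalization. HSPA5 (-0.935 and -0.948) and DNAJC3 (0.656 and 0.892) missed 2-fold under both, and NFYB (-0.818) and SLC7A11 (-0.882) under the second. Differences under normexp turned sign for ERN1 (-0.814), EIF2AK3 (-0.055) and DDIT3 (-0.319), while normexp moved the median of all tested probes to -0.414. With normexp and quantile normalization that median was -0.001 and the 3 differences were 0.030, 0.008 and 0.076. Leaving out 1 array in turn moved EIF2AK3 from -0.049 to 0.060 and ATF4 from -0.013 to 0.045, both with adjusted p above 0.05 throughout. It gave ERN1 from 0.12 to 0.252, ATF6B from -0.163 to -0.029, DDIT3 from 0.013 to 0.084 and CREB3 from 0.107 to 0.225. Deviations from the group mean correlated at -0.016, 0.117 and -0.116 between samples of the same replicate number, and from -0.125 to 0.117 between the others. With 3 arrays a group this cannot settle whether the shared numbers pair the samples. With the replicate number as a block, 1381 probes, 1 of the 10 genes and 7 list genes were called, and the brighter MBTPS1 probe had an adjusted p of 0.0756 (limma). Normexp was run on median spot signals because the tables used here hold no mean signal. Dim probes such as ERN1, near 15 to 27 units of signal, limit what a background correction can settle.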
